A study of Caenorhabditis elegans with 6 samples.

Results

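The ammonium transporter genes amt-1, amt-2, amt-3 and amt-4 and the Rh protein genes rhr-1 and rhr-2 of Caenorhabditis elegans were followed in worms kept under the space condition and in ground control worms. The 6 genes were found by their symbols in the platform annotation and were read by 7 of the 22548 tested probe sets, 1 for each gene and 2 for amt-3. They were chosen on the large rise of amt-4 in the space condition, so the values of amt-4 are given as a description and without a test. The worms were of strain CC1, labelled as wild type, and were cultured in CeMM, a bacteria-free liquid medium. The space condition group was grown on the International Space Station in mixed stages for up to 10 generations and was moved automatically to fresh medium about every 1 month. The ground control group was of the same strain and was passaged in step with it. Total RNA of each group was hybridised to 3 Affymetrix arrays labelled as technical replicates. The sources do not say how many cultures or extracts lie behind them, and p-values therefore reflect array-to-array spread alone, which can be technical.

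Ammonium transporters of the Amt family, first known from bacteria, yeast and plants, and their relatives the Rh proteins, known from human red cells and kidney, form channels in membranes that pass ammonia or ammonium. Worms lose most of their waste nitrogen as ammonia, much of it across the hypodermis, the epidermis beneath the cuticle. In current models of this excretion the Rh channels work beside carbonic anhydrases, the vacuolar proton pump, the Na+/K+-ATPase and Na+/H+ exchangers, which supply protons and ion gradients. Ammonia itself comes from enzymes that break down amino acids and is captured again by glutamine synthetase.

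The deposited values were linear intensities and the median of an array was 111.9 to 119.3 under the space condition, against 102.5 to 128.1 in the ground control. As a scale for background, 8 control probe sets for sequences that worm RNA should lack read between 0.562 and 86.7. Fold changes are given on the scale log2(intensity + 16), as space condition over ground control with the standard error (SE) of limma. A probe set was called as risen or fallen if its limma p adjusted over all 22548 probe sets was under 0.05 and its change was at least 2-fold. Of the 5'/3' control ratios, a measure of RNA quality, that of actin differed between the groups without overlap and that of Gapdh overlapped. The actin control's 5'/3' ratio, as log2, was -2.94, -3.26 and -3.16 on the space arrays, against -3.59, -4.03 and -4.30 on the ground arrays. The Gapdh ratio was -0.94, -2.06 and -1.51 on the space arrays, against -0.87, -1.87 and -3.65 on the ground arrays. The mean of both ratios overlapped too, at -1.94, -2.66 and -2.33 on the space arrays, against -2.23, -2.95 and -3.97 on the ground arrays. Space condition 1 and ground control 3 lay at the ends of the mean ratio. Results are also given without that pair of arrays, a setting under which limma called 0 probe sets, although 5176 had an unadjusted p under 0.05.

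The probe set of amt-4, one of the 4 Amt-type transporters, read higher on every space array than on any ground array. Its intensities were 2414, 2242 and 2036 on the space arrays, against 195, 277 and 181 on the ground arrays. The groups were far apart: the lowest space array read 7.36 times as much as the highest ground array, and all 6 values lay above the brightest absent control. The means were 2231 ± 189 under the space condition and 218 ± 51.6 in the ground control (SD, n = 3 each), a ratio of 10.3. On the log2 scale the change was 3.28 ± 0.23 (SE), the rank 5 rise among the 22548 probe sets. With the pair of arrays at the ends of the 5'/3' ratio left out it was 3.12, and 3.21 after adjusting for that ratio as a covariate. The probe set carries the mark of probes shared with other sequences, so signal of a related transcript cannot be told apart from that of amt-4. In RNA of whole worms a change in RNA per cell cannot be told apart from a change in the share of the cells that make it.

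The Rh protein gene rhr-1, reported from the hypodermis among other tissues, was the other member that rose. It read 8078, 5318 and 5939 on the space arrays, against 2574, 1933 and 1413 on the ground arrays. The groups did not overlap, and the lowest space array read 2.07 times as much as the highest ground array. The means were 6445 ± 1448 under the space condition and 1973 ± 582 in the ground control (SD, n = 3 each). The log2 change was 1.72 ± 0.29 (SE, limma adjusted p = 0.0132), rank 245 among all rises. The probe set of rhr-1 has no mark of shared probes. The array with the lowest rhr-1 level, ground control 3, was also the one with the lowest mean 5'/3' ratio. With that ratio in the fit the change was 1.32 ± 0.22 (limma adjusted p = 0.0329). The call was lost without space condition 3, where rhr-1 stood at 1.77 (limma adjusted p = 0.0509), and without both space condition 1 and ground control 3, at 1.33 (limma adjusted p = 0.0733). Over all 16 alternatives the adjusted p ran from 0.00231 to 0.0733 and the change from 1.32 to 1.93.

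**Figure D1:**
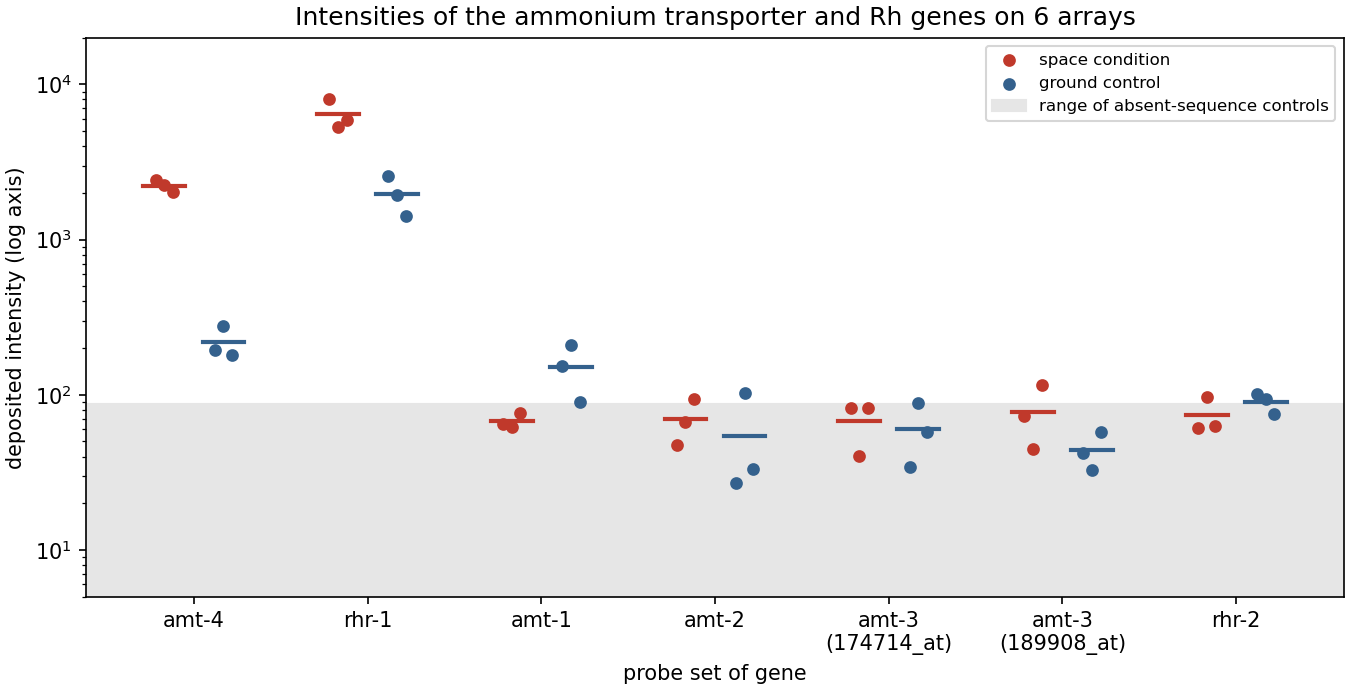
Deposited intensity (log axis) of the 7 probe sets of the 6 genes on each array, with points for the 3 space condition arrays at the left and the 3 ground control arrays at the right of each pair, bars for group means, and a grey band for the range of the absent-sequence controls up to 86.7. The space arrays lie above the ground arrays for amt-4 (2036 to 2414 against 181 to 277) and rhr-1 (5318 to 8078 against 1413 to 2574), below them for amt-1 (62.0 to 76.3 against 90.0 to 211), and overlap with them for the other probe sets.

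The Amt-type gene amt-1 had lower values on the space arrays, at a level near background. It read 64.3, 62.0 and 76.3 on the space arrays, against 154, 211 and 90.0 on the ground arrays. The groups did not overlap, but ground control 3 lay only 1.18 times above the highest space array, and each space value was below the brightest absent control. The means were 67.6 ± 7.68 under the space condition and 151 ± 60.3 in the ground control (SD, n = 3 each). The log2 change of -0.94 ± 0.30 (SE, limma adjusted p = 0.0958) was not called, with a 95% interval from -1.63 to -0.25. The change was called in 1 of 16 alternatives, without ground control 3 (-1.23, limma adjusted p = 0.0412). With space condition 1 left out as well it stood at -1.21 and was not called (adjusted p = 0.0849). Over all 16 alternatives the change ran from -1.23 to -0.67 and the adjusted p from 0.0402 to 0.232. The size of a change at such levels depends on the pseudocount, with -1.07 at a pseudocount of 1 and -0.67 at 64.

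The remaining genes were close to the background controls in both groups. The Amt-type gene amt-2 read 47.4, 66.3 and 94.3 on the space arrays, against 27.1, 103 and 33.4 on the ground arrays. The ground arrays alone spanned more than the space arrays did, with ground control 2 the highest of all 6. Its log2 change of 0.39 ± 0.41 (SE, limma adjusted p = 0.621) had a 95% interval from -0.56 to 1.34, which leaves room for a 2-fold rise.

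The gene amt-3, also Amt-type, was read by a pair of probe sets. The first read 82.0, 40.1 and 82.6 on the space arrays, against 34.1, 88.7 and 57.7 on the ground arrays, and changed by 0.16 ± 0.35 (SE, limma adjusted p = 0.827). The second read 72.7, 44.7 and 115 on the space arrays, against 42.0, 32.9 and 57.5 on the ground arrays, and changed by 0.59 ± 0.32 (SE, limma adjusted p = 0.309). The groups overlapped on both, and the array that was highest differed: ground control 2 on the first and space condition 3 on the second. The 95% intervals ran from -0.64 to 0.96 and from -0.15 to 1.32.

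The second Rh gene, rhr-2, read 61.0, 97.1 and 63.0 on the space arrays, against 102, 93.8 and 75.3 on the ground arrays. Its values overlapped between the groups, on a probe set marked as shared. The log2 change of -0.26 ± 0.24 (SE, limma adjusted p = 0.571) had a 95% interval from -0.81 to 0.29. With values so near background, this interval of the signal does not exclude a 2-fold change of the transcript. The pair of Rh genes thus had a call on rhr-1 and none on rhr-2. Whether the changes of the 2 genes differ was not tested.

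Of the 7 probe sets, 2 rose and 0 fell, where 5.15% of all tested probe sets rose and 2.16% fell, 7.31% in all. At an unadjusted limma p under 0.05 amt-1 was lower. The groups did not overlap on 3 of the 7, against 30.2% of all probe sets. The median log2 change of the 7 was 0.39, against -0.01 over all probe sets. Since the set was picked for amt-4 in this same comparison, nothing is read from these counts. By mean intensity, rhr-1 stood at percentile 96.1 of all probe sets and amt-4 at 87.4, while the other 5 lay between 35.9 and 48.6. These are positions of probe sets on the array and do not rank the genes' transcript levels.

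**Figure D2:**
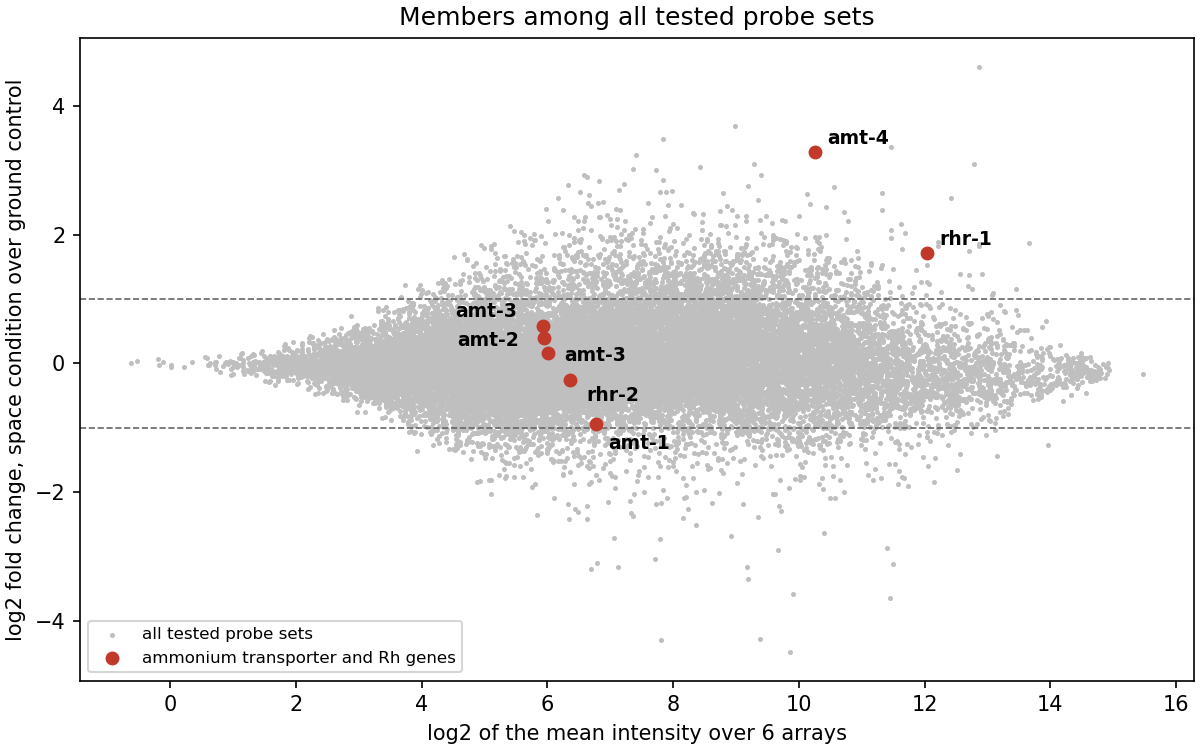
Log2 fold change of space condition over ground control (vertical axis) against the log2 of the mean intensity over the 6 arrays (horizontal axis) for all 22548 tested probe sets in grey and the 7 probe sets of the ammonium transporter and Rh genes in red, with dashed lines at 2-fold. The probe sets of amt-4 (3.28) and rhr-1 (1.72) lie above the upper line at the bright side, and the other 5 lie between -0.94 and 0.59 at the dim side.

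In the RefSeq annotation amt-4 and amt-1 are next to each other among protein-coding genes, so their flanks were read as well. On the side of amt-4, C05E11.6 stood at 0.34 ± 0.28 (SE, limma adjusted p = 0.52) and the transcription factor gene ham-2 at -0.32 ± 0.28 on its brighter probe set (adjusted p = 0.553). A dimmer ham-2 probe set stood at 1.13 ± 0.31 (adjusted p = 0.0638), with a ground mean of 14.4. On the side of amt-1, C05E11.3 stood at -0.60 ± 0.29 (adjusted p = 0.257) and at -0.11 ± 0.20 on a dimmer probe set (adjusted p = 0.806), and C05E11.7 at -0.21 ± 0.23 (adjusted p = 0.641). Of these neighbours none was called by limma, and at an unadjusted p under 0.05 the dimmer ham-2 probe set was higher.

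The genes with values most like those of amt-4 were sought by Pearson correlation over the 6 arrays, among 10732 other probe sets with 1 gene symbol and a mean above the array median. The 5 highest were F35D11.4 (r = 0.998), W03F9.1, B0304.4, F42A10.6 and T28A8.6 (r = 0.997 each). The arrays fall into 2 groups and the points share their array's RNA, so such an r follows mainly the group difference: 723 of those probe sets exceeded 0.95. The 5 differed in size of change. The log2 change was 3.05 ± 0.26 for F42A10.6, 2.096 ± 0.23 for T28A8.6, 1.50 ± 0.20 for B0304.4, 1.10 ± 0.20 for W03F9.1 and 0.60 ± 0.19 for F35D11.4. These genes were picked by likeness to amt-4, whose values split by group. Their changes are therefore a description, given without a test. Among the members, rhr-1 had r = 0.947 with amt-4 and amt-1 had r = -0.767, over the same 6 arrays.

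The list of enzymes around ammonia release and capture included several called genes, not all of which act on free ammonia. Of the list's 24 measured genes, on the brightest probe set of each, 6 rose and 1 fell, where 5.34% of 17118 genes rose and 2.42% fell. The list's median log2 change was 0.42, against -0.02 over all genes, and 12 of the 24 had space values wholly above the ground values, as did 17.6% of all genes. Of the 24 probe sets, 14 carry the mark of shared probes, among them those of all 6 risers. On these probe sets signal of related transcripts cannot be told apart from that of the named genes. Without marked probe sets the list had 1 call, where fewer genes were tested.

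Among the genes of this list the asparagine synthetase gene asns-2 had the largest change. It read 2421, 1715 and 1658 on the space arrays, against 381, 295 and 227 on the ground arrays, a log2 change of 2.63 ± 0.27 (SE, limma adjusted p = 0.00442). The arginase gene argn-1, whose product splits arginine into urea and ornithine, read 7883, 9880 and 10574 on the space arrays, against 1392, 1538 and 1814 on the ground arrays. Its log2 change was 2.56 ± 0.22 (SE, limma adjusted p = 0.00226), while a dim second probe set of argn-1 stood at 0.56 ± 0.30 (adjusted p = 0.307). For both genes every space array lay above every ground array.

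The histidine ammonia-lyase gene haly-1, whose product frees ammonia from histidine, read 3320, 3467 and 3429 on the space arrays, against 1284, 982 and 1168 on the ground arrays. It rose by 1.57 ± 0.20 (SE, limma adjusted p = 0.00668), with a small spread within each group. The glutamine synthetase gene gln-1, which encodes an enzyme that fixes ammonia onto glutamate, read 4430, 4425 and 4050 on the space arrays, against 1774, 1911 and 1939 on the ground arrays. It rose by 1.19 ± 0.19 (limma adjusted p = 0.0116), and its dimmer probe set rose too, by 1.96 ± 0.45 (adjusted p = 0.0357).

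Other glutamine synthetase genes were not called. The gene gln-6 stood at -0.46 ± 0.19 (limma adjusted p = 0.191) with the space arrays below the ground arrays, and gln-3 at 0.58 ± 0.35 (adjusted p = 0.361). The gene gln-5 stood at 2.11 ± 0.73 (adjusted p = 0.121): it read 587, 319 and 258 on the space arrays, against 168, 138 and 8.50 on the ground arrays, and ground control 3 lay far below the other ground arrays. The other called genes were the aspartate aminotransferase gene got-1.2 (1.44 ± 0.34, adjusted p = 0.04), the glycine cleavage gene gcsh-2 (1.201 ± 0.22, adjusted p = 0.0174) and, lower on the space arrays, the cystathionine beta-synthase gene cbs-1 (-1.19 ± 0.23, adjusted p = 0.0219). Of the called enzymes, those of argn-1, got-1.2 and cbs-1 neither release nor fix free ammonia, and that of asns-2 takes nitrogen from glutamine. The gln genes, got-1.2, gcsh-2 and cbs-1 were named after their values were seen, as were cah-2, cah-3, bca-1, vha-9, catp-1 and nkb-3.

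Glutamate dehydrogenase, encoded by gdh-1, interconverts glutamate with ammonia and 2-oxoglutarate and gave the brightest signal of the list. It read 9651, 11195 and 10564 on the space arrays, against 7753, 6877 and 8743 on the ground arrays. The groups did not overlap, but the change of 0.43 ± 0.20 (SE, limma adjusted p = 0.244) was not called. The second gdh-1 probe set, marked as shared, rose by 1.06 ± 0.25 (adjusted p = 0.0412), so the probe sets of this gene disagree on the call.

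**Figure D3:**
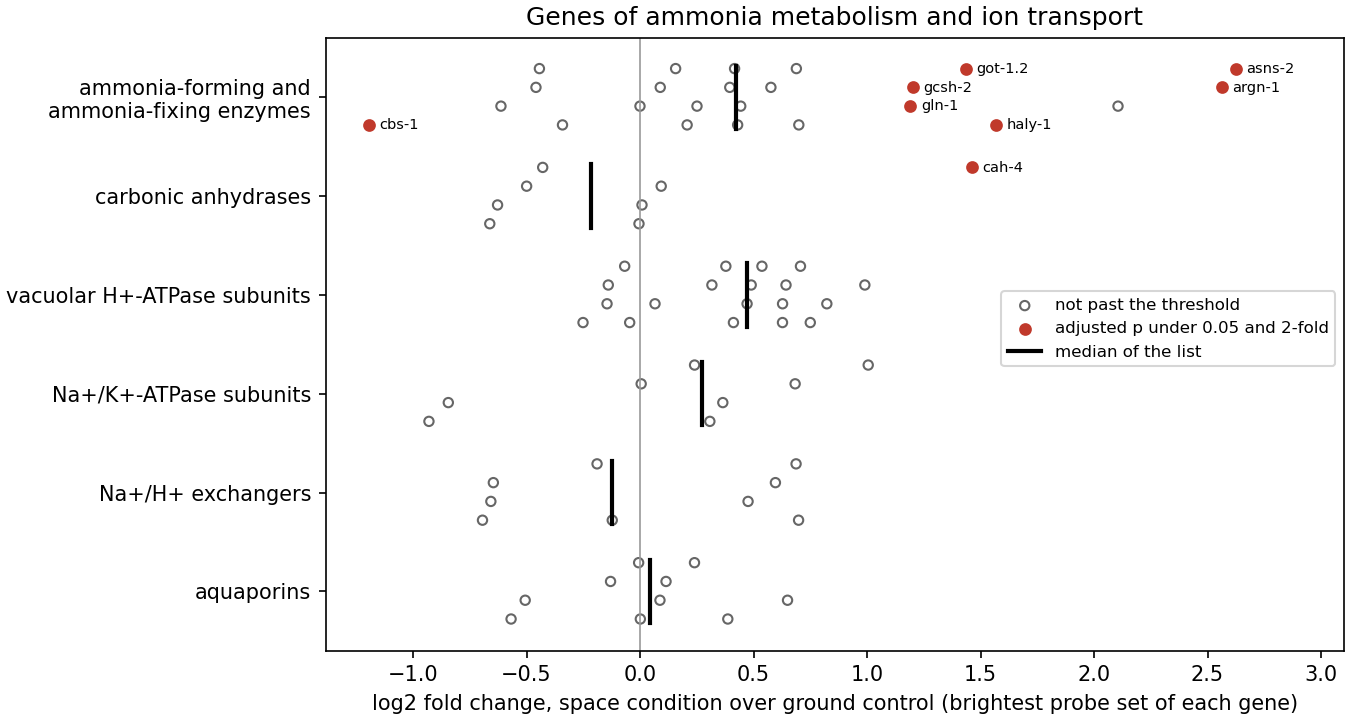
Log2 fold change of space condition over ground control for each gene (brightest probe set) of 6 lists of ammonia metabolism and ion transport, with filled red points for the genes past the threshold, open points for the others and a black bar at each list's median. The 8 called genes are 7 of the ammonia enzyme list, between -1.19 and 2.63, and the carbonic anhydrase gene cah-4 at 1.46.

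Of 8 carbonic anhydrase genes, whose products convert carbon dioxide and water to bicarbonate and protons, 1 rose and 0 fell, and the median was -0.22. The riser was cah-4, the brightest of them. It read 2439, 1516 and 2165 on the space arrays, against 780, 770 and 610 on the ground arrays, without overlap, and its log2 change was 1.46 ± 0.25 (SE, limma adjusted p = 0.0142). It lost the call without space condition 3 (1.41, adjusted p = 0.061), when the 5'/3' ratio entered the fit (1.23, adjusted p = 0.0504) and without both space condition 1 and ground control 3 (1.21, adjusted p = 0.0876), over a range of adjusted p of 0.00211 to 0.0876 in 16 alternatives. The genes cah-2, cah-3 and bca-1 had lower values on the space arrays without overlap. They stood at -0.66 ± 0.26, -0.63 ± 0.24 and -0.43 ± 0.19 (adjusted p = 0.164, 0.157 and 0.223). Over the array, 30.2% of probe sets had groups without overlap in either direction. At an unadjusted p under 0.05 limma found 1 higher and 2 lower genes of this list. The share of all genes under that unadjusted limit is not given here. Nothing is therefore read from this count or from the like counts of the pump, exchanger and aquaporin lists below.

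The pumps and channels that set ion gradients had few differences past the threshold. Of 19 measured subunits of the vacuolar proton pump limma called 0, with 5 higher and 0 lower at an unadjusted p under 0.05 and a median of 0.47. The nearest to the threshold was vha-9 at 0.99 ± 0.26 (adjusted p = 0.0515), and the brightest, vha-1, stood at -0.14 ± 0.23 (adjusted p = 0.775). Of 8 Na+/K+-ATPase subunits limma called 0, with 2 higher and 2 lower at an unadjusted p under 0.05.

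The main catalytic subunit of the Na+/K+-ATPase is encoded by eat-6, the brightest gene of that list, which read 6423, 6495 and 6384 on the space arrays, against 10765, 10777 and 13341 on the ground arrays. The groups were well apart, and the change of -0.84 ± 0.20 (SE) passed the limma test (adjusted p = 0.0401) but fell short of 2-fold. On a dimmer eat-6 probe set the change was past the threshold, at -1.11 ± 0.25 (adjusted p = 0.0344). On the dimmest it was not, at -0.68 ± 0.25 (adjusted p = 0.135). All of these eat-6 probe sets carry the mark of shared probes. The related gene catp-1 stood at 1.01 ± 0.26 (adjusted p = 0.0505) and nkb-3, which encodes a beta subunit, at -0.93 ± 0.36 (adjusted p = 0.162). The values of these 3 genes pointed both ways, and on its brightest probe set none was called.

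Of 9 Na+/H+ exchanger genes limma called 0, with 3 higher and 1 lower at an unadjusted p under 0.05, and the brightest, nhx-5, stood at -0.65 ± 0.28 (adjusted p = 0.199). Of 10 aquaporin genes, whose products pass water or glycerol, limma called 0, with 1 higher and 0 lower at an unadjusted p under 0.05. The brightest, aqp-7, stood at -0.01 ± 0.21 (adjusted p = 0.989). The medians of these lists were -0.12 and 0.04.

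Markers of the tissues that a whole worm holds also differed between the groups. As a scale for the counts of markers, 5.34% of all 17118 genes rose and 2.42% fell. The summed intensity of 16 germline markers was 12661 to 12983 on the space arrays, against 5918 to 7053 on the ground arrays. Of the 16, 8 rose, 0 fell and 8 were not called, with a lowest log2 change of -0.15. Among the risers were the eggshell gene cbd-1 (2.29 ± 0.36), the P granule gene pgl-1 (1.71 ± 0.27) and the synapsis gene syp-1 (1.67 ± 0.19, limma adjusted p = 0.0111 at most for the 3). The brightest germline marker, glh-1, rose by 1.17 ± 0.22 (limma adjusted p = 0.0204). The sum of 13 hypodermis markers was 6223 to 6679 on the space arrays, against 8365 to 10081 on the ground arrays, and 2 fell and 0 rose, the collagen gene rol-6 (-1.87 ± 0.42) and the fibrillin-related gene fbn-1 (-1.59 ± 0.23). The brightest hypodermis marker, sqt-3, stood at -0.56 ± 0.25 (limma adjusted p = 0.219). The hypodermis markers were mixed: 5 of the 13 had higher means on the space arrays, and 4 lay at or below the brightest absent control on every array. Whether the changes of rhr-1 and amt-4 go with the share of hypodermis was not tested.

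The sum of 13 intestine markers overlapped, at 37353 to 44537 on the space arrays, against 36538 to 50736 on the ground arrays, and 2 of the 13 rose, the protease gene cpr-1 (2.29 ± 0.31) and the peptide transporter gene pept-1 (1.72 ± 0.34). The brightest intestine marker, asp-1, stood at -0.13 ± 0.23 (limma adjusted p = 0.798). Sums were lower on the space arrays for 10 excretory cell markers (6261 to 7030, against 7306 to 8513), 13 neuron markers (25905 to 27035, against 31893 to 34881) and 10 body-wall muscle markers (17781 to 20205, against 24624 to 29172). Bright genes weigh most in such sums. The brightest excretory cell marker, erm-1, had a mean of 2879 on the space arrays, against 4342 on the ground arrays. The brightest of the others were snb-1 for neurons (9569 against 12765) and unc-15 for muscle (6987 against 11839). Directions within these lists were mixed: 4 of the 10, 4 of the 13 and 3 of the 10 had higher means on the space arrays. In these lists 0, 0 and 1 rose and 0, 1 and 0 fell, where 5.34% of all genes rose and 2.42% fell. The riser was the muscle marker myo-3 (1.53 ± 0.27, limma adjusted p = 0.0164), against the direction of its list's sum. The marker that fell was rab-3 of the neuron list (-1.07 ± 0.21, adjusted p = 0.0212). Of all marker values 0 were listed at 0. The part of tissue shares in the values of amt-4, rhr-1 and the enzyme genes was not tested.

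**Figure D4:**
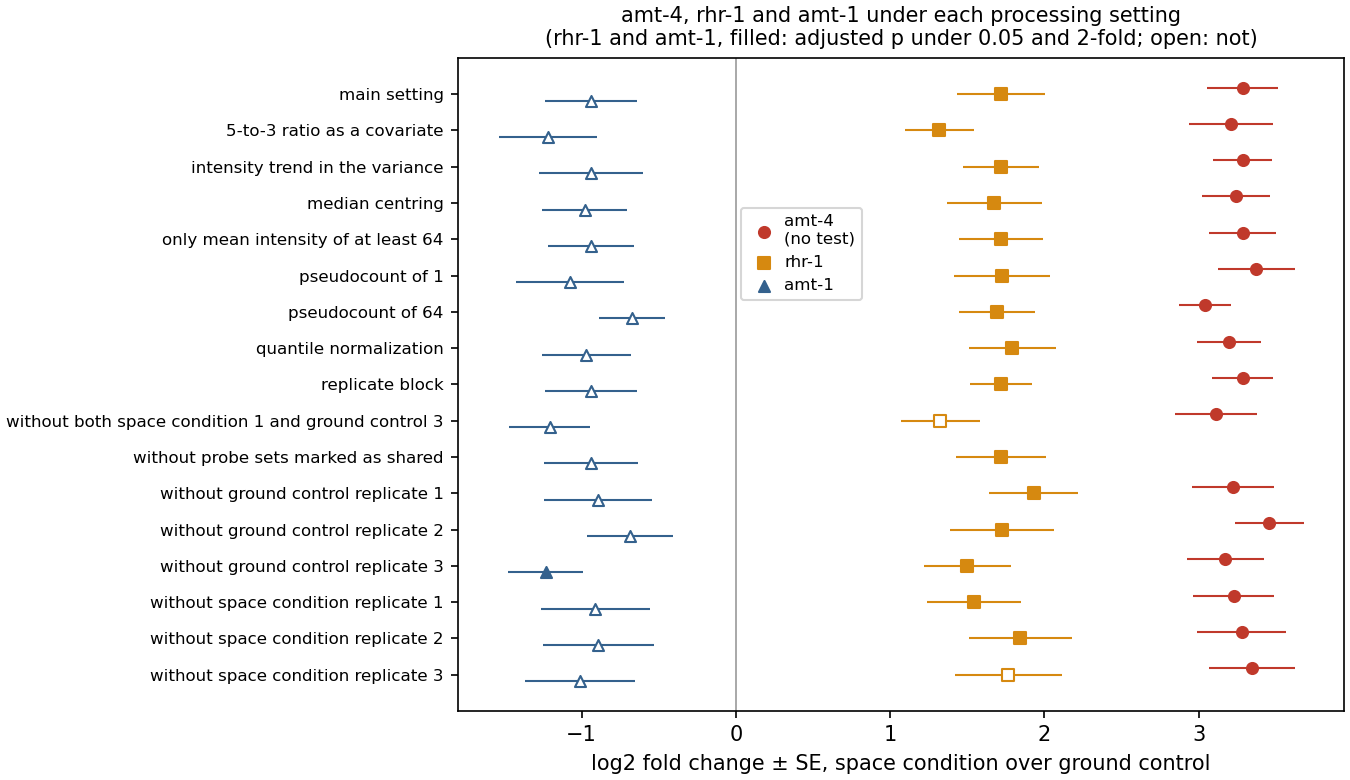
Log2 fold change ± SE of space condition over ground control for amt-4, rhr-1 and amt-1 under the main setting and 16 alternatives, with filled symbols for rhr-1 and amt-1 where the change was past the threshold and open symbols where it was not; amt-4, given without a test, has 1 symbol throughout. The values of amt-4 lie between 3.04 and 3.46, those of rhr-1 between 1.32 and 1.93 and those of amt-1 between -1.23 and -0.67; amt-4 has no value without probe sets marked as shared.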

How the data were processed

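Gene expression was measured on 6 Affymetrix arrays with biotin-labelled cRNA made from 10 to 100 ng of total RNA, per the labels' protocols. Groups and replicate numbers came from the sample titles. The deposited file holds 1 linear intensity for each probe set and array. The authors' summarisation and scaling tools are not given in the sources used here, but the 2%-trimmed mean was 500.1 to 500.2 on each array. The 77 array controls among 22625 probe sets did not enter the tests. Values were taken as log2(intensity + 16) and fitted in R 4.3.3 with limma 3.58.1 (lmFit, then eBayes), group being the sole factor, with Benjamini-Hochberg adjustment over 22548 probe sets and no filter on dim ones; the code was tested on simulated data. Platform gene symbols were brought up to date by gene identifier from RefSeq (assembly WBcel235). For genes outside the 6 members the probe set with the highest mean stood for the gene (17118 genes). The mark of shared probes is a letter in the probe set name and was carried by 6711 probe sets.

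The members, the lists and the tests were chosen with earlier results of these data known. Named genes are the 6 members, from each of 12 lists up to 3 called genes with the largest change and the brightest gene, the 2 nearest protein-coding genes on each side of amt-4 and amt-1, and the 5 genes most correlated with amt-4. Alternatives were a pseudocount of 1 or 64, quantile or median scaling, a minimum mean intensity of 64, a variance trend with intensity, the replicate block, the 5'/3' ratio as a covariate, removal of marked probe sets, and leaving out arrays singly or space condition 1 with ground control 3. Precision is limited by the number of arrays. Plots were made in Python 3.11.15 (matplotlib 3.10.9).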

Additional observations from a re-analysis of the deposited data

How the results depend on the processing

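The direction of amt-4, rhr-1, amt-1, amt-2, rhr-2 and the second amt-3 probe set was the same under all alternatives in which each was tested. Leaving out space condition 1 and ground control 3 together, which leaves 2 arrays a group, gave 0 calls over the array and in the 6 ammonia and ion lists, with amt-4 at 3.12 and rhr-1 at 1.33. The 8 calls in those lists became 5 with the 5'/3' covariate and 2 without marked probe sets, where fewer genes were tested. Over the array, 1648 calls became 1097 with the covariate, 1027 with a pseudocount of 1 and 905 without marked probe sets. The main setting had 1162 rises and 486 falls, against 884 and 617 after quantile normalization.

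Leaving out single arrays gave 588 to 1201 calls over the array (588 without space condition 3, 604 without space condition 2, 879 without space condition 1, 928 without ground control 2) and 4 to 8 in the lists. The change of amt-4 ran from 3.17 to 3.46, rhr-1 from 1.50 to 1.93, amt-1 from -1.23 to -0.69 and the first amt-3 probe set from -0.11 to 0.43. Sign changes were also seen for vha-1 (0.12 with the covariate, 0.13 without the pair of arrays, -0.26 to 0.0300 without single arrays, the highest without ground control 3) and aqp-7 (0.10 after quantile normalization, -0.10 to 0.0811 without single arrays, the highest without ground control 1); the cause was not tested.

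The titles do not say whether equal replicate numbers pair the arrays, and 3 arrays a group are too few to decide it. Deviations from the group means correlated at 0.388, 0.058 and 0.171 for equal numbers, each the highest value for its ground array. Space condition 2, though, correlated better with ground control 3 (0.159) than with its own number. With the replicate block amt-4 stood at 3.28 ± 0.20 and rhr-1 at 1.72 ± 0.20, the array had 1741 calls and the lists 9. No member changed its call under the block.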
